A study of Mus musculus with 6 samples.

Results

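The genes described are 10 non-collagenous matrix genes of cartilage: the matrilins Matn1, Matn2, Matn3 and Matn4, the proteoglycan and link protein genes Acan, Hapln1 and Epyc, and the secreted chondrocyte protein genes Lect1, Cytl1 and Ucma. They were selected by symbol from the 49492 gene symbols in the authors' table, with the difference between genotypes already known, and all 10 were found. RNA was measured by poly(A) RNA-seq in C57BL mouse palatal shelves, the paired outgrowths that later fuse into the palate, at E14.5. Each of the 3 controls was homozygous for loxP-flanked Prmt1 (PRMT1 fl/fl), and the 3 deletion samples had the same Prmt1 alleles together with Wnt1-Cre, whose promoter drives the recombinase in neural crest. Prmt1 encodes an arginine methyltransferase. Wnt1-Cre deletes the gene in the crest-derived mesenchyme and leaves it in epithelium, muscle and blood, which have other origins. Since Cre was present in no control, an effect of Cre itself and one of the deletion cannot be told apart. Separate embryos are not named as the source of each library, so the errors given measure the spread between these libraries. Libraries are called by the number in their column name, 212, 213 and 220 for control and 208, 211 and 221 for deletion.

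Cartilage matrix consists of type II collagen fibrils and a gel of aggrecan, a large proteoglycan that carries chondroitin sulfate chains and binds to hyaluronan. Link protein holds that complex together, and matrilins are multi-subunit adaptors that connect fibrils with proteoglycans. The bony palate forms directly from mesenchyme without a cartilage model, and the nearest embryonic cartilages are those of the nasal capsule, the cranial base and the lower jaw.

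Library totals ran from 44919889 to 50022829 counts. Levels are given as CPM, counts per 1000000 counts of a library after TMM scaling. Prmt1 ranged from 246.3 to 257.9 CPM in controls and from 200.9 to 217.3 CPM after deletion. The groups did not overlap, and the log2 fold change was -0.27 ± 0.05 (SE; edgeR quasi-likelihood test, adjusted p = 0.0113). Xist, the RNA that coats the silenced X chromosome of females, had 15.5 CPM in control 212, 16.0 CPM in control 213 and 3384 to 4487 CPM in the remaining 4 libraries, so that by Xist control 220 alone had the sex of the deletion samples. Markers of palate mesenchyme (10 of 10 tested, among them Osr2, Pax9 and Shox2) summed to between 2120 and 2296 CPM in controls and between 2255 and 2336 CPM after deletion. By edgeR 0 of the 10 passed the threshold, 2 had an unadjusted p under 0.05, and DESeq2 called 1 and limma voom 0. The sum hides an uneven gene of this list, Msx1. It was at 51.7, 122.2 and 178.2 CPM in controls 212, 213 and 220. In deletion 208, 211 and 221 Msx1 was at 69.0, 61.1 and 188.2 CPM.

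Of the 10 matrix genes, 8 were higher in every deletion library than in every control: Matn1, Matn3, Matn4, Acan, Hapln1, Epyc, Lect1 and Cytl1. Among all 19284 genes tested, 14.1% were higher in this way and 13.5% lower. In the fit over all genes, 6 of the 10 were called higher at an adjusted p under 0.05 and 0 lower, where 3.65% of all genes were called higher, 3.37% lower and 7.01% in either direction. The called genes were Matn1, Cytl1, Epyc, Matn3, Lect1 and Matn4. Acan and Hapln1 lay apart between the groups without being called, while Matn2 and Ucma overlapped. These calls come from the contrast that led to the choice of genes and are given as a description, not as a test. All 10 passed the filter on low counts, and Cytl1 passed it through the deletion libraries, since not every control reached its limit of 0.21 CPM. The median log2 fold change over the 10 genes was 2.13, beside 0.00 over all genes tested. Together the 10 genes took 0.0112% to 0.0156% of counts in controls and 0.0253% to 0.0308% after deletion. In tissue RNA of this kind, more cartilage cells and more transcript per cell cannot be told apart.

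**Figure D1:**
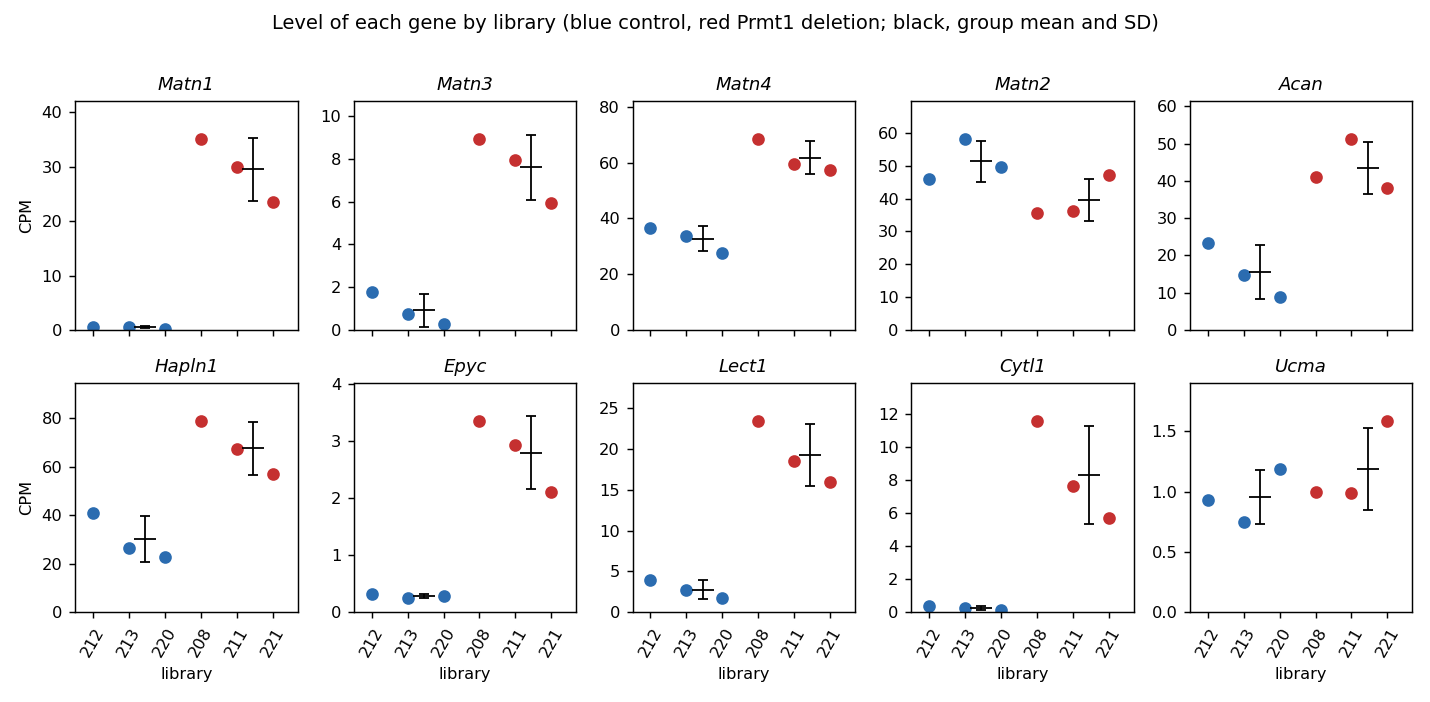
CPM of each gene (vertical axes from 0, each with its own scale) by library; blue points are controls, red points are libraries with Prmt1 deleted, and black marks give the mean and SD of each group of 3. Matn1, Epyc and Cytl1 lie near 0 in the controls, Acan and Hapln1 already vary widely among the controls, and Matn2 and Ucma overlap between the groups.

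The start regions of the genes with the largest rises, and of Epyc, are shown for the sequence that precedes these transcripts. Each run gives the 250 bases before the RefSeq start (build GRCm38.p6), 5′ to 3′ on the gene's strand, which is plus for all 3. They cover chr4:130944135-130944384 for Matn1, chr5:37735269-37735518 for Cytl1 and chr10:97643818-97644067 for Epyc. Capitals mark matches on either strand to ACAAAG or ACAATG, cores recognised by SOX factors, or to TATAAA, the TATA box.
Matn1: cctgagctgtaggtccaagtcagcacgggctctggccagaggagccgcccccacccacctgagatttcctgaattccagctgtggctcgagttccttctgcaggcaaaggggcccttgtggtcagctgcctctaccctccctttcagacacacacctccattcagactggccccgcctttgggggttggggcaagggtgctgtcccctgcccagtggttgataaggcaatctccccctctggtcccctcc
Cytl1: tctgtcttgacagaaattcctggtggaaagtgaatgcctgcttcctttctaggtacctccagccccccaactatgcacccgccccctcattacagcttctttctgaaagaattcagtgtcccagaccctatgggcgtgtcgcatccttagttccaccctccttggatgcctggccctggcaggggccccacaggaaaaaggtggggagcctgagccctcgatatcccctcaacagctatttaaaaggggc
Epyc: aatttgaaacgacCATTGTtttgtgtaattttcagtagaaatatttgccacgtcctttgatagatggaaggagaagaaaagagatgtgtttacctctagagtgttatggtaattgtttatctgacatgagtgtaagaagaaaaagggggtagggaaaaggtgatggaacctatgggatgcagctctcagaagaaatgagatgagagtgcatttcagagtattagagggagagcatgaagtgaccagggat
The runs for Matn1 and Cytl1 held no match to any of these letters. The single match for Epyc was ACAATG on the minus strand, beginning 237 bases before the start. A second Epyc start in the RefSeq table held 3 matches, with ACAATG at 209 and 202 bases and ACAAAG at 147 bases before it. The table held 9 of the 10 genes, in 11 entries, and Matn2 was not among them. Epyc was the 1 gene of these 9 with either SOX core. Of all 32851 entries, 16.5% held ACAAAG, 10.7% held ACAATG, 25.2% held at least 1 of both and 12.4% held TATAAA. The letters are a description of this window and not a binding site.

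Matn1 encodes matrilin-1, an abundant matrix protein of most hyaline cartilages other than the joint surface. It lies on chromosome 4 from 130944385 to 130955475 (mm10, plus strand), with 8 exons and no other annotated gene overlapping it. Control 212 had 0.636 CPM, control 213 had 0.566 CPM and control 220 had 0.264 CPM, from 32, 28 and 12 counts. Deletion 208 had 35.1 CPM, deletion 211 had 30.0 CPM and deletion 221 had 23.6 CPM, from 1752, 1367 and 1056 counts. The lowest deletion library was thus far above the highest control. The fold change was 59.5, or 5.89 ± 0.26 on the log2 scale (SE, n = 3 each).

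Matn3 encodes matrilin-3, a matrilin of growing cartilage in which mutations cause skeletal dysplasia. It lies on chromosome 12 from 8947929 to 8972028 (plus strand). Its controls were the most uneven of the 10 genes, at 1.77, 0.748 and 0.264 CPM in 212, 213 and 220, a 6.70-fold range. The deletion libraries had 8.93, 7.95 and 5.94 CPM in 208, 211 and 221, all above the controls. The log2 fold change was 3.02 ± 0.59 (SE). Matn3 was not called without control 213 (2.88), deletion 208 (2.89), deletion 211 (2.99) or deletion 221 (3.17).

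Matn4, the matrilin found in many connective tissues as well as cartilage, lies on chromosome 2 from 164389393 to 164405160 (minus strand). It was at 36.5, 33.8 and 27.7 CPM in controls 212, 213 and 220 and at 68.5, 59.6 and 57.2 CPM in deletion 208, 211 and 221. The groups were separate, and the fold change was 1.89 (log2 0.92 ± 0.11, SE). Among controls the SD of Matn4 was 0.20 (log2 CPM), above 94.7% of the 2975 genes within 0.5 log2 of its control level. In the deletion group it was 0.14, above 86.8% of genes of similar level there. Rbpjl overlaps Matn4 on the opposite strand, and strand use in the counting is not given in the sources used here. Rbpjl itself was at 0.858 to 1.67 CPM in all 6 libraries.

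Matn2, a matrilin of loose connective tissue, muscle and nerve as well as skeleton, lies on chromosome 15 from 34306677 to 34436273 (plus strand). It was the 1 matrilin with a fold change below 0. Controls 212, 213 and 220 had 46.1, 58.2 and 49.7 CPM, and deletion 208, 211 and 221 had 35.7, 36.2 and 47.1 CPM. Deletion 221 lay above control 212, so the groups overlapped. The log2 fold change was -0.37 ± 0.12 (SE; 95% interval -0.66 to -0.09), and it was not called. Without deletion 221 the log2 fold change was -0.51 and Matn2 was called lower. An annotated gene on the opposite strand of Matn2, 9430069I07Rik, had at most 0.0202 CPM.

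Acan encodes aggrecan, the main proteoglycan of cartilage, and lies on chromosome 7 from 79053483 to 79115099 (plus strand). It was at 23.3, 14.6 and 8.89 CPM in controls 212, 213 and 220, a 2.62-fold range. It was at 41.1, 51.2 and 37.9 CPM in deletion 208, 211 and 221. The groups were separate, with a fold change of 2.78 (log2 1.47 ± 0.39, SE; 95% interval 0.43 to 2.52), and the gene was not called. On the same 6 libraries it was called by DESeq2 (log2 1.48), limma voom (1.55) and a non-robust edgeR fit (1.47). Without control 212 the log2 fold change was 1.88 and Acan was called.

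Hapln1 encodes the link protein that ties aggrecan to hyaluronan, and lies on chromosome 13 from 89539796 to 89611652 (plus strand). Controls 212, 213 and 220 had 41.0, 26.6 and 22.8 CPM. Deletion 208, 211 and 221 had 78.7, 67.2 and 56.9 CPM, all above the controls. The fold change was 2.24 (log2 1.17 ± 0.27, SE; 95% interval 0.47 to 1.86) and was not called, while without control 212 it was 1.45 (log2) and was. DESeq2, limma voom and the non-robust fit also called Hapln1, at log2 fold changes of 1.17 to 1.19. The processed pseudogene Gm8546 overlaps Hapln1 on the opposite strand and had 11.2 to 13.1 CPM in all 6 libraries.

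Epyc encodes epiphycan, a small leucine-rich proteoglycan of growth cartilage, and lies on chromosome 10 from 97644068 to 97682454 (plus strand). It was at 0.318, 0.243 and 0.286 CPM in controls 212, 213 and 220, from 16, 12 and 13 counts. It was at 3.34, 2.94 and 2.10 CPM in deletion 208, 211 and 221. The fold change was 9.82 (log2 3.30 ± 0.30, SE). The opposite-strand RNA gene Gm10754, which overlaps Epyc, had at most 0.0893 CPM. Unlike Acan, Epyc was even among the controls, with a 1.31-fold range that counts this low cannot resolve.

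Lect1, also called Cnmd, encodes chondromodulin, an inhibitor of vessel growth made by chondrocytes, and lies on chromosome 14 from 79637690 to 79662170 (minus strand). Controls 212, 213 and 220 had 3.97, 2.69 and 1.69 CPM and deletion 208, 211 and 221 had 23.4, 18.6 and 16.0 CPM. The groups were far apart, with a fold change of 6.91 (log2 2.79 ± 0.30, SE). Cytl1, a small secreted protein enriched in chondrocytes, lies on chromosome 5 from 37735519 to 37739820 (plus strand). Its controls had 18, 12 and 6 counts (0.358, 0.243 and 0.132 CPM), and deletion 208, 211 and 221 had 578, 348 and 257 counts (11.6, 7.62 and 5.74 CPM). The fold change was 33.4 (log2 5.06 ± 0.37, SE), second in size after Matn1.

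Ucma, a secreted protein of the upper zone of growth cartilage, lies on chromosome 2 from 4976122 to 4985748 (plus strand). It was at 0.934, 0.748 and 1.19 CPM in controls 212, 213 and 220 and at 1.00, 0.986 and 1.58 CPM in deletion 208, 211 and 221. The groups overlapped and the log2 fold change was 0.32 ± 0.31 (SE; 95% interval -0.38 to 1.01).

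Within each group the genes shared an order of libraries. Among controls, 212 was the highest for 8 of the 10 genes and 220 the lowest for 7, where 35.7% and 36.5% of all genes tested had these extremes. Among deletion libraries, 208 was the highest for 7 genes and 221 the lowest for 8, beside 31.3% and 38.2% of all genes. The exceptions at the low end of the controls were Matn2, Epyc and Ucma. Acan varied among controls with an SD of 0.69 (log2 CPM), above 99.1% of the 2099 genes within 0.5 log2 of its control level, whose median SD was 0.11. Hapln1 had an SD of 0.44 (above 98.9% of such genes), Matn3 1.28 (98.0%) and Lect1 0.61 (96.1%). Matn1 and Cytl1 had SDs of 0.62 and 0.60, above 76.4% and 59.3% of genes at their low control levels. Inside the deletion group the SDs were 0.29 for Matn1 and 0.51 for Cytl1, above 97.2% and 98.1% of genes of similar level there. Measured instead by the square root of the edgeR dispersion over both groups, the spread of Matn1 was above 38.7% and that of Cytl1 above 66.8% of genes of similar mean level, while Acan (99.3%), Hapln1 (99.1%), Matn3 (98.7%) and Lect1 (97.6%) stayed near the top.

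Control 220, alike in sex to the deletion samples by Xist, was thus also the control with the lowest level of most of these genes. With embryo sex as a covariate, which makes the contrast one of deletion against 220, the log2 fold change was 6.79 for Matn1, 5.95 for Cytl1, 4.84 for Matn3, 3.51 for Lect1, 2.29 for Acan, 1.57 for Hapln1 and 1.16 for Matn4. Epyc stayed near its value, at 3.28, Matn2 was at -0.33, and Ucma moved to 0.00. In control 220 Matn1 and Matn3 had 12 counts each, Epyc 13 and Cytl1 6, which limits the precision of their fold changes in this contrast. The 6 genes called without the covariate were called again. Without controls 212 and 213, Acan (2.29) and Hapln1 (1.57) were called as well, from a fit whose spread comes from the deletion libraries alone. An effect of sex on these genes cannot be told apart here from other differences between control 220 and the controls of low Xist.

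**Figure D2:**
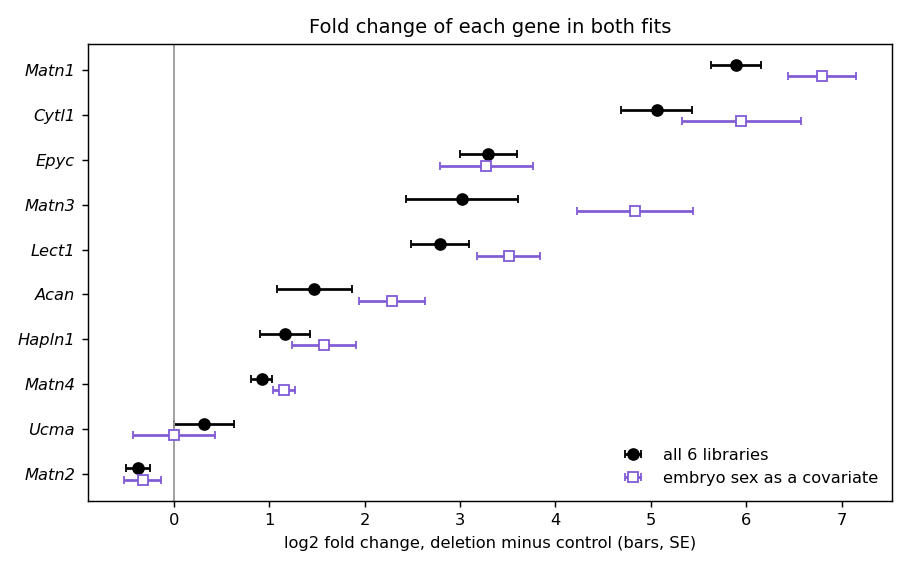
Log2 fold change (deletion minus control, horizontal axis) with its SE for each gene, black circles for all 6 libraries without a covariate and open squares with embryo sex as a covariate. Matn1 is at 5.89 and 6.79, Epyc hardly differs between the fits, and Matn2 lies below 0 in both.

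Per length of summed exons, the order of the genes differed between the genotypes. In controls Matn2 was the highest, at 8.20 ± 0.99 CPM per kb, followed by Matn4 (6.31 ± 0.87), Hapln1 (5.10 ± 1.63), Acan (2.09 ± 0.97), Lect1 (1.51 ± 0.62) and Ucma (1.08 ± 0.25; SD, n = 3 throughout). Matn3 (0.307 ± 0.255), Matn1 (0.244 ± 0.099), Cytl1 (0.231 ± 0.107) and Epyc (0.110 ± 0.015) made the low end. Neighbours whose control libraries overlapped were Matn4 and Hapln1, Acan and Lect1, Lect1 and Ucma, Matn3 and Matn1, and Matn1 and Cytl1. In deletion libraries Matn1 was the highest, at 14.8 ± 2.88 CPM per kb, and overlapped with Matn4 (11.9 ± 1.15). Hapln1 (11.5 ± 1.85), Lect1 (10.5 ± 2.05), Cytl1 (7.87 ± 2.82), Matn2 (6.33 ± 1.03) and Acan (5.81 ± 0.93) followed, each overlapping with the next. Matn3 (2.52 ± 0.51) stood below them all, and Ucma (1.35 ± 0.39) and Epyc (1.09 ± 0.25) overlapped at the end. Matn1 moved from place 8 of 10 to place 1, or from place 9 to place 2 with the longest transcript as the length.

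The genes did not rise in a common proportion. For each 100 counts of Acan, Matn1 had 2.73, 3.87 and 2.97 counts in controls 212, 213 and 220 and 85.4, 58.5 and 62.1 counts in deletion 208, 211 and 221, a ratio of means of 21.5. These count ratios are compared between libraries and, being without length, not between genes. Cytl1 went from 1.54, 1.66 and 1.49 counts to 28.2, 14.9 and 15.1 counts per 100 of Acan. Among the controls, the ratio to Acan varied 1.12-fold for Cytl1 and 1.12-fold for Lect1, while Acan itself varied 2.62-fold. Cytl1 had 18, 12 and 6 counts in controls 212, 213 and 220, which cannot resolve a range this narrow. Lect1 went from 17.1, 18.4 and 19.1 to 57.0, 36.3 and 42.1 counts per 100 of Acan, and Epyc from 1.37, 1.66 and 3.22 to 8.14, 5.73 and 5.53. Matn2 had fewer counts per 100 of Acan in every deletion library (70.7 to 124.1) than in every control (198.2 to 559.2). For Hapln1, Matn4 and Ucma the groups overlapped on this scale. Relative to Col2a1, the type II collagen gene, Matn4 was at 13.4, 16.2 and 15.3 counts per 100 in the controls and at 15.5, 14.7 and 13.9 in deletion libraries, a ratio of means of 0.984. Matn1 per 100 of Col2a1 went from 0.217 ± 0.064 to 7.03 ± 1.16 counts (SD), a ratio of means of 32.4.

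**Figure D3:**
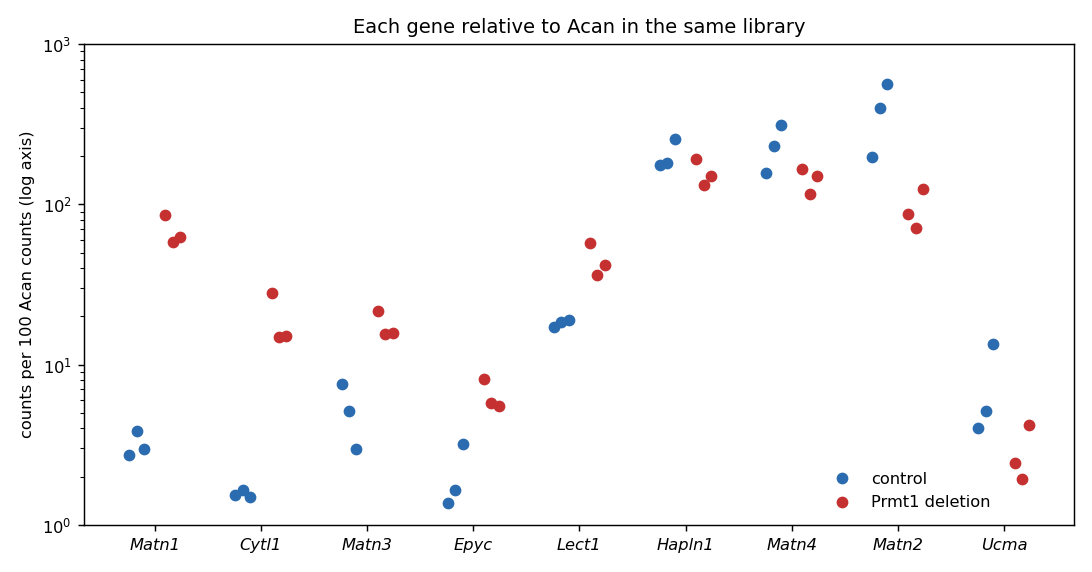
Counts of each gene per 100 counts of Acan in the same library (log axis); blue points are the 3 controls and red points the 3 libraries with Prmt1 deleted. Matn1 and Cytl1 lie furthest apart between the groups, at 2.73 to 3.87 against 58.5 to 85.4 counts for Matn1, Hapln1 and Matn4 overlap, and Matn2 is lower in the deletion libraries.

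The cartilage collagens, which form the fibrils that matrilins and aggrecan bind to, had 2 of 7 tested genes higher and 0 lower. Col2a1 ranged from 181.3 to 271.8 CPM in controls and from 405.1 to 440.8 CPM after deletion, and rose 1.90-fold (edgeR adjusted p = 0.0141). Col9a3, a chain of the type IX collagen on the fibril surface, rose 2.99-fold (adjusted p = 0.0321 by edgeR). Col9a1 ranged from 11.2 to 27.8 CPM in controls and from 65.9 to 94.8 CPM after deletion without passing (edgeR adjusted p = 0.0591). The minor fibril chains Col11a1 and Col11a2 had log2 fold changes of -0.16 and -0.52 and did not pass. Col10a1, the collagen of hypertrophic chondrocytes, was at 2 to 7 counts in every library and was not tested. Leaving out control 213, deletion 208, or control 220 together with deletion 221 left 0 of these collagens called. Keeping all genes without a filter on low counts also left 0. Leaving out deletion 211 or deletion 221 left 1, and with sex as a covariate the number was again 2. It was 3 with DESeq2, limma voom or a non-robust edgeR fit, and without control 212.

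Of 18 tested genes for other cartilage matrix and secreted proteins, 5 rose and 1 fell, with a median log2 fold change of 0.25. Smoc1, a calcium-binding matrix protein, rose 1.62-fold, Cilp, a protein of the middle zone of cartilage, 2.01-fold, Mia, a small secreted chondrocyte protein, 2.90-fold, Comp, an adaptor of collagen fibrils, 2.75-fold and Scrg1 5.79-fold (edgeR adjusted p = 0.00665, 0.00677, 0.0105, 0.0344 and 0.0302). Fmod, the fibril-binding proteoglycan fibromodulin, fell 1.38-fold (adjusted p = 0.00821 by edgeR), and was not called with sex as a covariate (adjusted p = 0.175 by edgeR). The list had 0 genes lower without control 213 or without the controls of low Xist. Scrg1 was at 0.258, 0.101 and 0.0220 CPM in controls 212, 213 and 220 and at 0.580 to 1.04 CPM after deletion, so it passed the filter on low counts through the deletion libraries and its fold rests on few control counts. Without control 213 the list had 0 genes higher, and without deletion 208 or deletion 211 the number was 3. With sex as a covariate this number was 0, at log2 fold changes of 0.83 for Smoc1, 1.20 for Cilp and 1.81 for Mia.

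Regulators of chondrocytes went both ways, with 3 higher and 5 lower of 17 tested. The risers were Sox9, the factor that starts cartilage formation (1.23-fold), Nkx3-2, a repressor that favours early chondrocytes (2.98-fold, from 0.909 ± 0.219 to 2.72 ± 0.573 CPM), and Gdf5, a growth factor of condensations and joints (2.51-fold). Those that fell were Fgfr3 (1.63-fold), the hedgehog ligand Ihh (2.77-fold), the PTHrP gene Pthlh (2.44-fold), its receptor Pth1r (1.46-fold) and Runx3 (1.68-fold), genes that act in chondrocyte maturation. Adjusted p by edgeR was 0.000257 for Fgfr3, 0.000513 for Pthlh, 0.00103 for Pth1r, 0.00428 for Ihh, 0.016 for Runx3, 0.00610 for Nkx3-2, 0.00698 for Gdf5 and 0.0391 for Sox9. Sox5 and Sox6, the partners of Sox9, did not pass (log2 fold changes 0.12 and -0.14). The number higher became 1 without control 213, 2 without control 220 or without deletion 211, and 0 with sex as a covariate, where 3 of the 5 falls (Fgfr3, Pthlh and Pth1r) were still called.

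Enzymes and transporters that build chondroitin sulfate, the sugar chain of aggrecan, moved little. Of 24 tested, Chpf2, a chondroitin polymerising factor, rose 1.15-fold and the sulfotransferase gene Chst13 fell 4.33-fold, from 1.72 ± 0.893 to 0.397 ± 0.121 CPM (edgeR adjusted p = 0.0482 and 0.0142). With sex as a covariate neither was called (adjusted p = 0.112 and 0.174 by edgeR). Of these 24 genes 0 were called higher with upper-quartile scaling, limma voom or a non-robust edgeR fit, or without control 212, 213 or 220 or deletion 208 or 211. Those called lower were 0 without control 213 or deletion 208 and with a filter on CPM. Other settings called more of the 24. DESeq2 called 3 higher and 2 lower, and keeping all genes without a filter on low counts gave 2 in each direction. Leaving out control 220 and deletion 221 also gave 2 in each direction. With a filter on CPM 2 were called higher, and with upper-quartile scaling or without control 212 2 were called lower. The summed level of the 24 was 1298 to 1363 CPM in controls and 1354 to 1369 CPM after deletion, with a median log2 fold change of 0.03. Matrix-degrading enzymes and their inhibitor Timp3 had 2 of 12 higher and 3 lower. Adamts15 rose 1.59-fold and Adamts9 1.39-fold, while Adamts4 fell 1.63-fold, the collagenase gene Mmp13 5.33-fold and Mmp14 1.19-fold. Their edgeR adjusted p was 0.000317, 0.00455, 0.00687, 0.00103 and 0.0432. With sex as a covariate 1 was called in each direction, Adamts15 and Mmp13. Among 9 tested relatives of the 10 genes, Bgn (biglycan) fell 1.25-fold (edgeR adjusted p = 0.0166) and 0 rose (1 with an unadjusted p under 0.05; DESeq2 called 1 higher). With sex as a covariate Bgn was not called. Vcan, the versican gene of the same family as Acan, had 1418 ± 320 CPM in controls and 1494 ± 48.3 CPM after deletion (edgeR adjusted p = 0.839). Tnmd, the closest relative of Lect1, was at 2.51 ± 0.681 and 2.39 ± 0.369 CPM.

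Markers of other tissues also differed between the genotypes. Skeletal muscle markers had 8 of 15 higher and 0 lower, and their summed level was 496.1 to 547.2 CPM in controls and 860.2 to 1435 CPM after deletion. Bone markers had 2 of 10 lower and 0 higher (summed, 4475 to 6040 CPM against 2747 to 3540 CPM, most of it Col1a1). The 2 were Mepe and Ifitm5. Mepe was at 0.201 CPM in deletion 221, so not every deletion library reached the filter limit of 0.21 CPM. Epithelial markers had 7 of 12 lower and 0 higher (1381 to 1526 CPM against 800.7 to 1052 CPM). Of 6 tendon markers 2 rose, the tendon factor Scx and Thbs4, and 1 fell, Kera. Of 8 blood markers 0 passed in edgeR, DESeq2 or limma voom, with 0 at an unadjusted p under 0.05. With sex as a covariate the counts were 5 higher for muscle, 0 lower for bone, 4 lower for epithelium and 0 in either direction for tendon. Of the 10 bone markers, DESeq2 called 10 lower, a non-robust edgeR fit 9 and limma voom 7. Of the listed markers 0 had no counts in all 6 libraries. The part of these differences in the levels of the matrix genes was not tested.

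**Figure D4:**
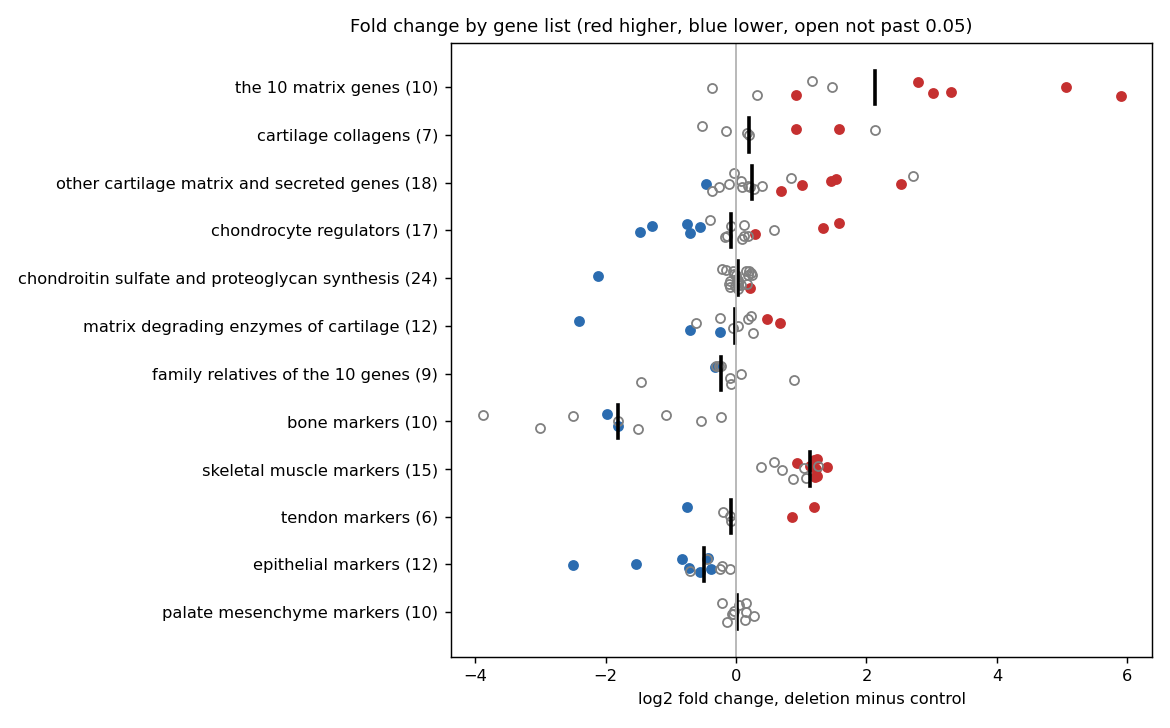
Log2 fold change (deletion minus control, horizontal axis) of each tested gene by list, with the number tested in brackets; filled red points were called higher, filled blue points lower, open points were not called, and black bars are medians. The 10 matrix genes reach 5.89 with a median of 2.13, chondroitin sulfate genes lie near 0 apart from Chst13, and the bone and muscle lists lie on opposite sides of 0.

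Genes with a similar profile were sought by the root mean square difference of centred log2 CPM over the 6 libraries. For Acan the 5 nearest genes outside the 10 were Hhatl, Hs3st4, Comp, Col9a3 and Nkx3-2, at differences of 0.17 to 0.23. Hhatl had at most 0.394 CPM, so its place rests on few counts. For Matn1 the nearest were Gm7265, Gm37015, A530064N14Rik, Gm28723 and Amy1, at 1.22 to 1.67. Gm37015 had at most 0.0596 CPM and Gm28723 at most 0.162 CPM in controls, under the filter limit of 0.21 CPM. Both thus passed the filter on low counts through the deletion libraries, and their places rest on few control counts. The distance of Matn1 reflects its size of change, since Gm7265, the nearest, had a log2 fold change of 3.63. For Matn2 they were 2010110K18Rik, Cbr3, Epdr1, Adamtsl1 and Pik3r5, at 0.06 to 0.07, of which Adamtsl1 was called lower (log2 fold change -0.43, edgeR adjusted p = 0.0142).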

How the data were processed

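The authors deposited 1 table of estimated counts per gene symbol, not normalized, in which 23.0% to 23.8% of values per library are not whole. STAR 2.4.1d, CASAVA 1.8.2, Partek and mm10 are named in the submitters' processing notes. Which step each served, and which gene models, strandedness and read filters applied, is not given in the sources used here. Column names give the genotype but not the sample.

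Counts were rounded, filtered with filterByExpr (minimum count 10, minimum total 15; 19284 genes kept) and scaled by TMM. Genotypes were compared with edgeR 4.0.16's quasi-likelihood test (robust, no covariate) in R 4.3.3, with Benjamini-Hochberg adjustment over all genes and a threshold of 0.05. Each SE is the log2 fold change over the square root of F, and intervals are at 95%. Log2 CPM used a prior count of 2. The fit was tested on simulated data. Coordinates and exon lengths come from GENCODE M21 (GRCm38, the assembly of mm10), promoters from RefSeq.

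The genes, lists and alternatives were chosen with earlier results of these data known. Named were all 10 genes, up to 4 called genes of smallest p per list (or the 2 of smallest p), the 5 nearest profiles of Matn1, Acan and Matn2, Prmt1 and Xist. Other names were added after their values were seen. Alternatives were other scalings, filters, tests (DESeq2 1.42.0, limma 3.58.1 voom), embryo sex, left-out libraries, and another gene length or spread.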

Additional observations from a re-analysis of the deposited data

How the results depend on the processing

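No paired analysis was possible because the columns carry none of the replicate numbers of the labels. The count of 1352 called genes became 2125 with the DESeq2 Wald test, 129 with embryo sex as a covariate, 89 without the controls of low Xist and 2769 without control 220 and deletion 221 (an alternative chosen after seeing the data), and ran from 356 (without control 213) to 1872 (without deletion 221) with 1 library left out. Of the 10 matrix genes 5 to 8 were called higher throughout. The number called lower, 0, was 1 (Matn2) with DESeq2, without control 220 and deletion 221, and, in the range of 0 to 1 with 1 library left out, without deletion 221. The median log2 fold change of 2.13 was 2.78 with sex as a covariate and 2.78 without the controls of low Xist. Both of these settings compare deletion with control 220, the lowest control for 7 of the 10 genes. The cause of the low levels in control 220 was not tested. Matn1, Matn4, Epyc, Lect1 and Cytl1 were called in all 16 alternative fits. Matn3 was called in 11, and not without a filter on low counts or in 4 of the 6 fits that left out 1 library. Acan and Hapln1 were each called in 5, Matn2 in 3 and Ucma in 0. No fold change of the 10 genes changed sign in these fits. Bone markers called lower, 2, were 10 with DESeq2, 9 with a non-robust edgeR fit, 7 with limma voom and 0 with sex. Of 416 counts of called genes over the lists and alternatives, 101 moved by over 1.5 times. Counts under 20 in every control library limit the precision of Epyc and Cytl1. In control 220 Matn1 and Matn3 had 12 counts each, which limits them in the fits that rest on this control.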
